A study of Cerrena unicolor with 12 samples.

Results

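Glutathione S-transferases (GSTs) are the 5 genes A00358.gene, A01960.gene, A04373.gene, A04379.gene and A09881.gene of *Cerrena unicolor* 87613, which are the genes that the study's supplementary annotation of glutathione metabolism names as such. Below they are written without the ending. They are 5 of the 11281 genes in the deposited table. Their product names come from that annotation alone and were not checked against a sequence here. The mycelia (hyphae, wild-type genotype, 1 strain) were grown with fructose or glucose as the carbon source. The study's methods give shaken potato dextrose medium at 30°C and 200 rpm, and name no medium for fructose cultures. RNA was sequenced from fructose cultures at cultivation day 10 (fructose Cd-10), fructose cultures at cultivation day 6 (fructose Cd-6), glucose cultures at Cd-10 and glucose cultures at Cd-6, with 3 replicate cultures in each of the 4 groups and 12 libraries in all. The study selected these days because extracellular laccase activity was high on the earlier one and low on the later one.

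GST enzymes join glutathione, the main small thiol of the cell, to electrophilic and oxidized compounds, so that these can be neutralized or exported. Some GSTs also reduce peroxides with glutathione. White rot fungi carry many GSTs of several classes, and the family is known there for its part in handling the toxic aromatic compounds that arise from wood. The 5 genes carry no class name in the annotation used here, so no finer role is given to any of them.

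The 9 libraries whose reads could be recovered held between 10281630 and 12126094 assigned read pairs each, and the summed deposited values ran from 9002213 to 11983389 over all 12. The fewest recovered reads in any library were 121 for A00358 (exact Poisson 95% interval 100.4 to 144.6), 130 for A01960, 527 for A04373, 431 for A09881 and 3396 for A04379. Reads without molecular identifiers are not independent molecules, and such an interval covers counting error only. In a principal component analysis of all genes, replicate 2 of glucose Cd-6 stood apart from the other cultures of its group on the second component (a score of 62.6, against 13.2 and 32.0). In normalized counts, that library also held the lowest value of its group in 4 of the 5 GSTs. By share of the summed values, replicate 3 was instead the lowest in A01960 (0.00399%, against 0.00403% in replicate 2) and A09881 (0.0172%, against 0.0187%). The day and sugar differences that involve replicate 2 are given with and without it. Levels below are normalized counts, which are not corrected for gene length, so that levels of different genes are not compared.

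All 5 GSTs were lower in fructose Cd-10 than in fructose Cd-6, by 1.61-fold to 4.63-fold, and in each gene every Cd-10 culture lay below every Cd-6 culture. The study describes its cultures as grown in potato dextrose medium, dextrose being glucose, and names no fructose culture. The day changes it lists for the 5 genes were each nearer to the glucose day differences given below than to those in fructose. Its choice of genes is thus taken to rest on the glucose cultures and not on the fructose cultures. The direction was the same in all 17 alternatives for each of the 5. The largest difference was that of A04379 and the smallest that of A01960. In bulk mycelium, less transcript per hypha and fewer hyphae that carry the transcript cannot be told apart.

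A04379 had 5556, 8555 and 3301 normalized counts in the fructose Cd-10 cultures, against 22629, 19152 and 35265 in the fructose Cd-6 cultures. The highest Cd-10 culture thus stayed below the lowest Cd-6 culture by a wide gap. The fitted log2 difference was −2.21 (SE 0.35, 95% interval −3.00 to −1.42, adjusted p = 0.0015 by limma, a linear model with a shared estimate of spread, with Benjamini-Hochberg adjustment over all genes tested). It was −2.99 in edgeR and in DESeq2 on the recovered reads, where the lowest culture, replicate 3, is the only one left for fructose Cd-10. A04373, the second of the GSTs with the largest differences, had 1509, 763 and 1587 normalized counts in fructose Cd-10, against 4121, 4192 and 3776 in fructose Cd-6. Its Cd-6 cultures lay close together and its Cd-10 cultures were more spread. The log2 difference was −1.73 (SE 0.25, limma adjusted p = 9.3e-04), or 3.31-fold lower at Cd-10.

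A00358 had 88.0, 131 and 123 normalized counts in fructose Cd-10 cultures, against 312, 437 and 276.2 in fructose Cd-6 cultures. The groups did not overlap, and the log2 difference was −1.58 (SE 0.23, limma adjusted p = 8.1e-04). A09881 had 836, 864 and 560 normalized counts in fructose Cd-10, against 1980, 2052 and 1994 in fructose Cd-6. Its 3 Cd-6 cultures were nearly equal, and its log2 difference was −1.45 (SE 0.18, limma adjusted p = 3.7e-04).

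A01960 changed least. It had 210, 260 and 264 normalized counts in fructose Cd-10 cultures, against 357, 468 and 359 in fructose Cd-6 cultures, and these ranges did not overlap either. Its log2 difference was −0.69 (SE 0.17, 95% interval −1.08 to −0.30, limma adjusted p = 0.015). This call depended on the setting, unlike those of the other 4 genes. Without replicate 2 of fructose Cd-6, which held the highest value, the limma adjusted p was 0.059 at a log2 difference of −0.56. With all 12 libraries in one fit it was 0.066 at −0.68. In edgeR and DESeq2 on the recovered reads, with replicate 3 alone for fructose Cd-10, the log2 difference was −0.61.

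**Figure D1:**
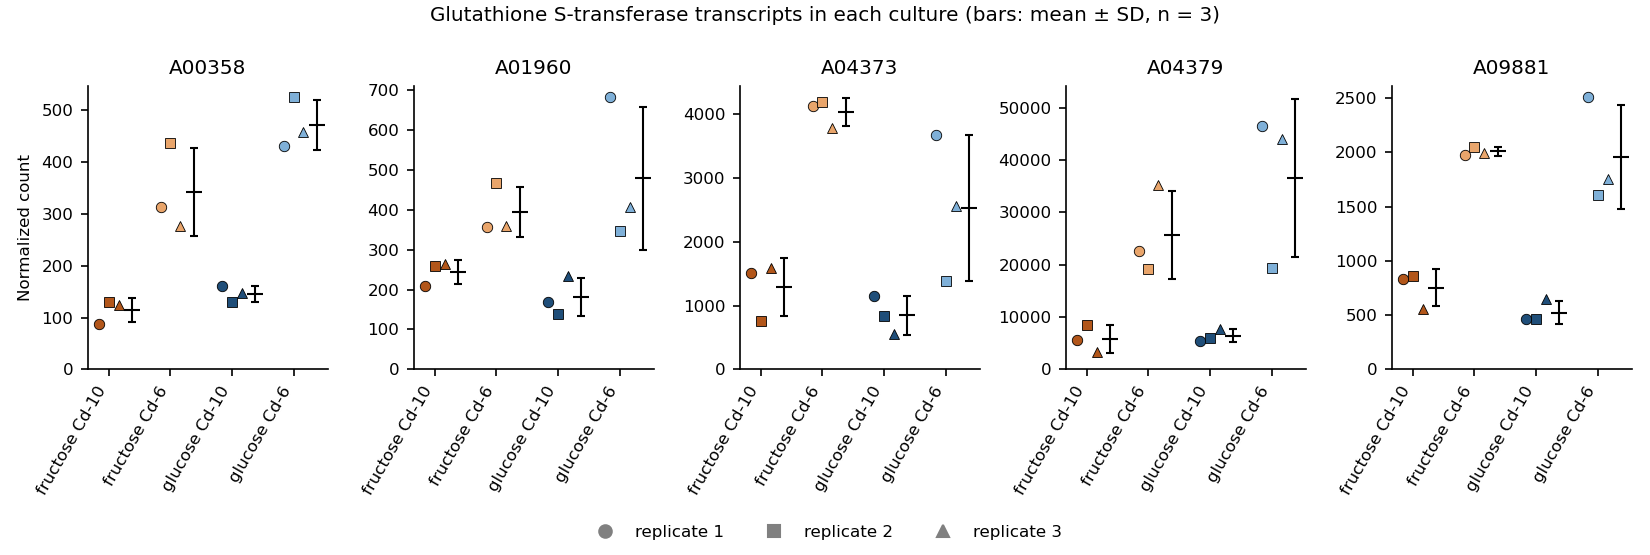
Normalized counts (vertical axes, linear, each starting at 0 and with its own scale) of the 5 GSTs in every culture of the 4 groups. Points are single cultures with a marker for each replicate number, and the bar beside them is the mean ± SD (n = 3). In the fructose cultures, all Cd-10 points lie below all Cd-6 points in every panel.

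The 5 calls are set beside the whole table, with a limit. The 5 genes are taken to have been chosen for a difference between the days in glucose, and all genes were not. The shares below are thus not those of genes that fall in glucose, which are not given here. Of the 10060 genes tested in the fructose cultures, 15.2% were called lower at Cd-10, which is 1527 genes, and 14.6% were called higher. All 5 of the GSTs were among the genes called lower. Their median log2 difference was −1.58, against a median of 0.00 over all genes tested. The share of all genes with a lower log2 difference was 1.73% for A04379, 3.36% for A04373, 4.01% for A00358, 4.70% for A09881 and 15.1% for A01960. A fall without overlap between the groups was found in 22.8% of all genes and in each of the 5 GSTs. The threshold of the study is an absolute log2 difference of at least 1 with an unadjusted p under 0.001. Under it, 4 of the 5 GSTs were called lower, all except A01960, against 5.95% of all genes.

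**Figure D2:**
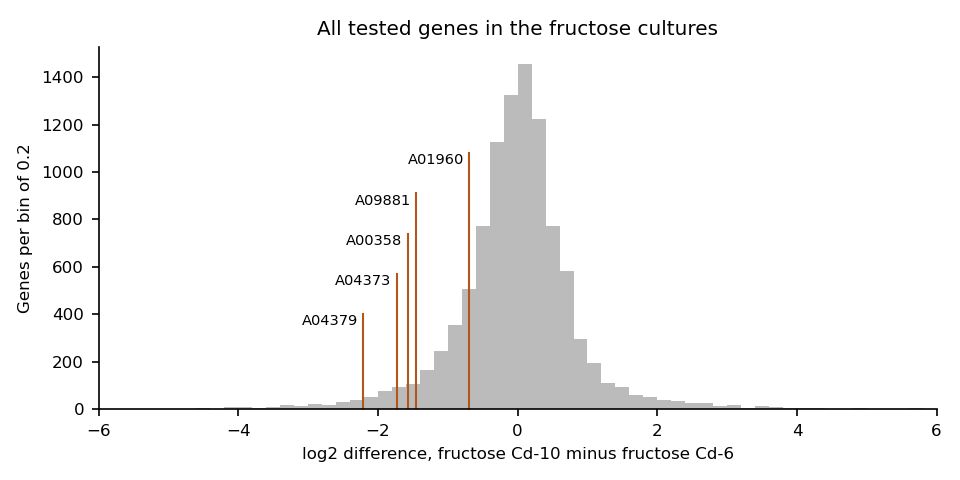
Distribution of the log2 difference, fructose Cd-10 minus fructose Cd-6 (horizontal axis), over the 10060 genes tested, as genes per bin of 0.2 (vertical axis). Vertical lines mark the 5 GSTs, with line height chosen for legibility only, and 7 genes lie beyond the axis. All 5 lines lie left of 0, from −2.21 for A04379 to −0.69 for A01960.

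From the medium and the day changes that the study gives, it is taken to have selected these genes on the glucose cultures. They were selected as differing between the days, so that the glucose day difference is given as a description, with no test. A04379 had 5352, 6084 and 7808 normalized counts in glucose Cd-10 cultures, against 46602, 19297 and 44040 in glucose Cd-6 cultures. A04373 had 1148, 834 and 551 in glucose Cd-10, against 3668, 1381 and 2553 in glucose Cd-6. In both genes replicate 2 of glucose Cd-6 was the low culture of its group, and without it their log2 differences were −2.84 and −1.92 in place of −2.42 (SE 0.37) and −1.53 (SE 0.39).

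A00358 had 161, 130 and 147 normalized counts in glucose Cd-10 cultures, against 431, 525 and 458 in glucose Cd-6 cultures. This was the only GST of the 5 in which replicate 2 of glucose Cd-6 was the highest of its group, and the log2 difference was −1.68 (SE 0.17). A01960 had 169, 140 and 234 normalized counts in glucose Cd-10, against 683, 347 and 406 in glucose Cd-6, a log2 difference of −1.36 (SE 0.30) in which replicate 1 of Cd-6 was the high culture. A09881 had 461, 464 and 647 in glucose Cd-10, against 2508, 1612 and 1751 in glucose Cd-6, a log2 difference of −1.88 (SE 0.22). Without replicate 2 of glucose Cd-6 these differences were −1.60 for A00358, −1.57 for A01960 and −2.01 for A09881. The median over the 5 genes was −1.68, and the groups did not overlap in any of them. Over all genes tested in the glucose cultures, 11.3% were called lower at Cd-10 and 22.5% were lower without overlap. Since the choice of genes used this contrast, nothing is read from these counts.

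**Figure D3:**
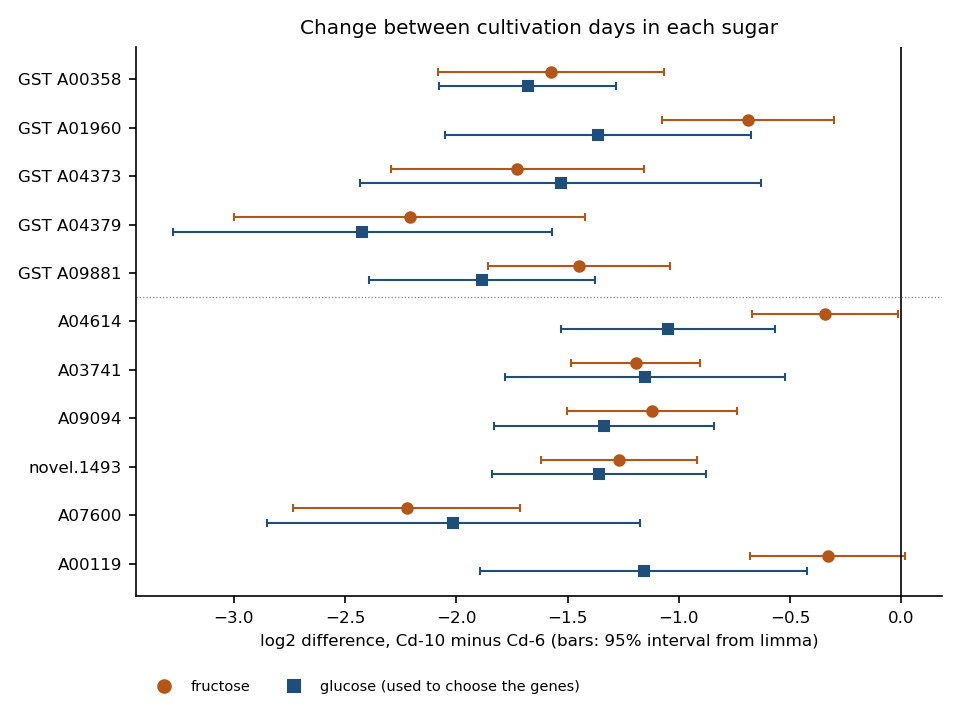
Log2 difference, Cd-10 minus Cd-6 (horizontal axis), with its 95% interval from limma, for the 5 GSTs above the dotted line and the 6 other genes of the glutathione list below it, in fructose (circles) and glucose (squares). The glucose values took part in the choice of these genes. Every point lies left of 0, and the fructose intervals of the 5 GSTs do not reach 0.

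With both sugars together, all 6 Cd-10 cultures lay below all 6 Cd-6 cultures in 4 of the 5 GSTs, which was so in 7.7% of the 10396 genes tested over all libraries. Since the glucose cultures took part in the choice of the genes, nothing is read from this count. The exception was A04373, in which the highest Cd-10 culture had 1587 normalized counts (fructose, replicate 3) and the lowest Cd-6 culture 1381 (glucose, replicate 2). The 5 genes together took up 0.0505% to 0.0958% of the summed values in fructose Cd-10 cultures, against 0.230% to 0.342% in fructose Cd-6. In glucose they took up 0.0639% to 0.0823% at Cd-10, against 0.269% to 0.493% at Cd-6. These shares are not corrected for gene length, and most of them came from A04379, which supplied between 56.6% and 89.5% of the five-gene sum in every culture.

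The order of the group means was similar in the 5 genes, with both Cd-10 groups below both Cd-6 groups in each. A00358 had 114 ± 22.8 normalized counts in fructose Cd-10, 146 ± 15.3 in glucose Cd-10, 341.8 ± 84.3 in fructose Cd-6 and 471 ± 48.0 in glucose Cd-6 (SD, n = 3 each), which is its order from low to high. Only the step between glucose Cd-10 and fructose Cd-6 was free of overlap there. A04379 had the same order, with 5804 ± 2636 in fructose Cd-10, 6415 ± 1261 in glucose Cd-10, 25682 ± 8479 in fructose Cd-6 and 36647 ± 15079 in glucose Cd-6, and again only the step between the days was free of overlap.

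A01960 had means of 245 ± 30.1 normalized counts in fructose Cd-10, 181 ± 48.2 in glucose Cd-10, 395 ± 63.5 in fructose Cd-6 and 479 ± 179 in glucose Cd-6. The sugars overlapped on each day, with glucose lower at Cd-10 and higher at Cd-6. A09881 had 753 ± 168 in fructose Cd-10, 524 ± 106 in glucose Cd-10, 2009 ± 38.4 in fructose Cd-6 and 1957 ± 482 in glucose Cd-6, with glucose the lower mean on both days and overlap within each day. A04373 had 1286 ± 455 in fructose Cd-10, 844 ± 299 in glucose Cd-10, 4030 ± 223 in fructose Cd-6 and 2534 ± 1143 in glucose Cd-6. It was the only one of the 5 in which the Cd-6 groups were apart and in which fructose Cd-10 and glucose Cd-6 overlapped.

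The spread among cultures of a group also varied among the 5 genes. The pooled SD within groups on the log2 scale was 0.56 for A04379 and 0.53 for A04373, with 85.1% and 83.2% of all genes less variable. It was 0.35 for A01960, 0.28 for A09881 and 0.25 for A00358, against a median of 0.29 over all genes. A04373 and A09881 were steady in one group, since their SD in fructose Cd-10 was 0.59 and 0.35, against 0.08 and 0.03 in fructose Cd-6.

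The next question was whether the carbon source changed GST transcripts on the same day. None of the 5 GSTs passed the limma test between fructose Cd-10 and glucose Cd-10 (adjusted p from 0.173 to 0.769), and 1 of them, A09881, had an unadjusted p under 0.05. Of all 10396 genes, 3.34% were called in this comparison and 22.3% had an unadjusted p under 0.05. edgeR and DESeq2 on the recovered reads cannot decide this comparison for the 5, since fructose Cd-10 had 1 library there. The glucose cultures that served to choose the genes enter this comparison and those that follow.

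A09881 had the smallest p at Cd-10, with a log2 difference of 0.51 (95% interval 0.06 to 0.97, limma adjusted p = 0.173, unadjusted p = 0.030). Its cultures overlapped at Cd-10, since fructose replicate 3 with 560 fell within the 461 to 647 of glucose. In edgeR and DESeq2, where fructose Cd-10 is left with this replicate alone, the difference disappeared (−0.0038 and −9.9e-05). A04373 was 0.60 on the log2 scale (95% interval −0.19 to 1.38) and A01960 0.46 (−0.09 to 1.01), while A00358 was −0.37 (−0.82 to 0.08) and A04379 −0.23 (−1.09 to 0.62). In the count tests, again with replicate 3 alone for fructose Cd-10, A04373 was 1.18 in edgeR and 1.19 in DESeq2, and A04379 −1.09 and −1.08. The intervals reach 1 or more in size on the log2 scale in A04373, A01960 and A04379. No member was free of overlap between the sugars at Cd-10, against 28.8% of all genes.

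At Cd-6 the same was found, with 0 of 5 GSTs passing the limma test between fructose and glucose (adjusted p from 0.153 to 0.879), 1 of 5 with an unadjusted p under 0.05, and 0 in edgeR and in DESeq2. Of all genes, 10.3% were called here and 26.9% had an unadjusted p under 0.05. A04373 was the only GST whose cultures did not overlap between the sugars, with 4121, 4192 and 3776 normalized counts in fructose Cd-6, against 3668, 1381 and 2553 in glucose Cd-6, whereas 32.2% of all genes did not overlap. Its log2 difference was 0.78 (95% interval −0.00 to 1.56, limma adjusted p = 0.188), and 0.39 without replicate 2 of glucose Cd-6.

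A00358 had the smallest p of the GSTs at Cd-6, with a log2 difference of −0.49 (95% interval −0.93 to −0.04, limma adjusted p = 0.153, unadjusted p = 0.036). It passed only where each library was scaled to the same sum (−0.76, limma adjusted p = 0.045), a scaling that also moved the median of all genes by −0.27. The other 3 genes had log2 differences of −0.46 (A04379, 95% interval −1.31 to 0.40), −0.23 (A01960, −0.78 to 0.32) and 0.07 (A09881, −0.39 to 0.52). Without replicate 2 of glucose Cd-6 the difference was −0.87 for A04379, −0.43 for A01960 and −0.41 for A00358. A09881 changed sign without replicate 2 (−0.065) or replicate 3 (−0.0048) of glucose Cd-6.

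The difference between the 2 day contrasts was tested as an interaction, (fructose Cd-10 minus fructose Cd-6) minus (glucose Cd-10 minus glucose Cd-6). None of the 5 GSTs passed in limma (adjusted p from 0.273 to 0.868) and none had an unadjusted p under 0.05, while 4.67% of all genes were called and 23.2% had an unadjusted p under 0.05. edgeR and DESeq2 on the recovered reads cannot decide the interaction for the 5, since fructose Cd-10 had 1 library there. The limma estimates were 0.12 for A00358 (95% interval −0.52 to 0.75) and 0.69 for A01960 (−0.09 to 1.47). They were −0.18 for A04373 (−1.29 to 0.93), 0.23 for A04379 (−0.98 to 1.44) and 0.45 for A09881 (−0.20 to 1.09). A01960, which fell by 0.69 on the log2 scale in fructose, against −1.36 in glucose, is the gene with the largest estimate. The intervals of A04373 and A04379 are the widest and span more than 2 on the log2 scale. Without replicate 2 of glucose Cd-6 the estimates were 0.21 for A04373, 0.64 for A04379, 0.89 for A01960, 0.58 for A09881 and 0.040 for A00358.

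**Figure D4:**
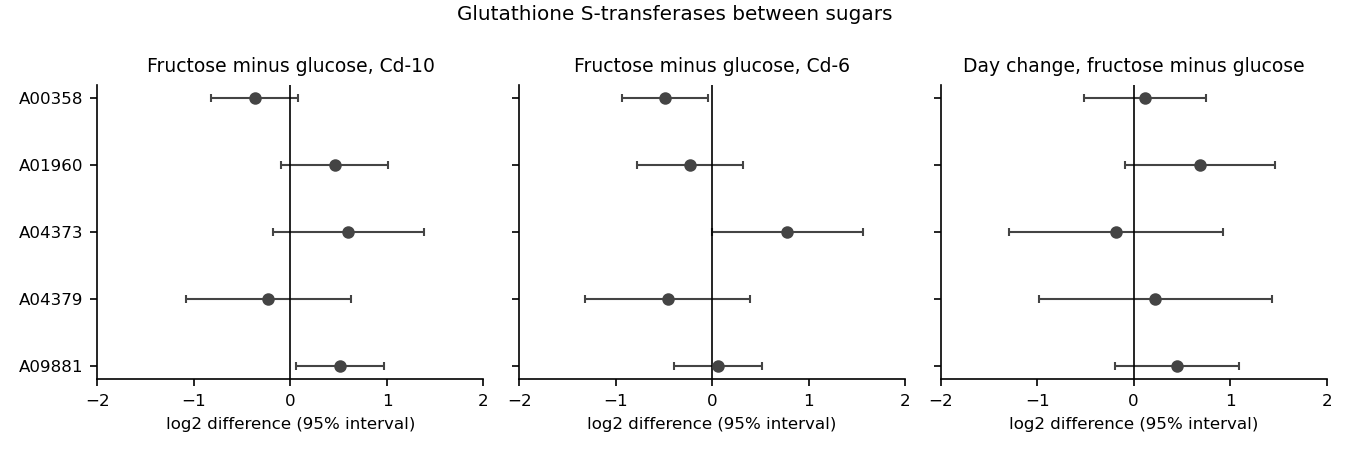
Log2 differences with their 95% intervals from limma (horizontal axes) for the 5 GSTs: fructose minus glucose at Cd-10, fructose minus glucose at Cd-6, and the fructose day difference minus the glucose day difference. None of the 15 estimates passed the adjusted test. The interval lies wholly above 0 for A09881 at Cd-10 and wholly below 0 for A00358 at Cd-6.

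The 6 other genes that the same annotation places in glutathione metabolism, also chosen on the glucose cultures, make up the surroundings in which GSTs work. In fructose, 4 of the 6 were called lower at Cd-10 and 0 higher, against 15.2% and 14.6% of all genes. The log2 difference was negative in all 6, with a median of −1.16. A09094 encodes glutathione synthetase, the enzyme of the last step of glutathione synthesis, and had 216 ± 22.5 normalized counts in fructose Cd-10, against 470 ± 78.1 in fructose Cd-6 (SD, n = 3 each), a log2 difference of −1.12 (SE 0.17, limma adjusted p = 0.0012). The others called lower were A03741 (−1.20), listed as gamma-glutamylcysteine, the gene listed as glucose-6-phosphate dehydrogenase (−1.27), an enzyme that supplies NADPH, and A07600 (−2.22), listed as trypanothione reductase. The aminopeptidase A04614 (−0.34, limma adjusted p = 0.108) and the second gene listed as trypanothione reductase, A00119 (−0.33, limma adjusted p = 0.139), did not pass.

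Between the sugars, 0 of these 6 genes passed in limma at Cd-10 and 0 in the interaction, against 3.34% and 4.67% of all genes. An unadjusted p under 0.05 was found in 3 and 2 of them, against 22.3% and 23.2% of all genes. edgeR and DESeq2 on the recovered reads cannot decide either comparison for these genes, since fructose Cd-10 had 1 library there. In limma, 2 of the 6 passed at Cd-10 and 2 in the interaction without replicate 3 of glucose Cd-10. At Cd-6, where 10.3% of all genes were called in either direction, 1 of the 6 passed. This was A07600, higher in fructose, with 4983 ± 824 normalized counts, against 2182 ± 690 in glucose (SD, n = 3 each). Its log2 difference was 1.23, with a limma adjusted p of 0.033. This call was lost when any one of replicates 2 and 3 of glucose Cd-6 or of the 3 fructose Cd-6 replicates was left out, and in edgeR (adjusted p = 0.058), and the adjusted p ran from 0.0055 to 0.138 over the alternatives.

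The pattern of each GST over the 12 libraries was set against that of every other gene by Pearson's r of the log2 values, as a description over libraries that fall into 2 days. The 10 pairs among the GSTs had r from 0.66 (A00358 with A04373) to 0.92, with a median of 0.82. The members were not each other's closest genes, since the best rank among 10395 other genes was 12 (A09881 for A01960) and the worst 1522 (A04373 for A00358). Of the 10 genes most like each GST, those with a pathway in the study's lists were A02716 for A00358 (r = 0.98, amino acid and carbon metabolism), the gene listed as glucose-6-phosphate dehydrogenase for A01960 (r = 0.94), A03741 for A04373 (r = 0.94) and A06660 for A04379 (r = 0.96, amino acid biosynthesis), while A09881 had none. The unlisted genes with the highest r were A02936 and A02499, both 0.98 with A00358. Glutathione synthetase, A09094, followed A00358 with r = 0.96.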

How the data were processed

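RNA-seq libraries of 12 cultures were analysed, 3 in each of 4 groups, grouped by the titles of the samples. Per the study's methods, NEBNext Ultra libraries were sequenced, Hisat2 2.0.5 aligned the filtered reads to the strain's own genome, and featureCounts 1.5.0-p3 assigned them to genes. The supplement of the study states that uniquely mapped reads were used for quantification, so that reads fitting more than one gene copy of this family would be left out. The table deposited by the authors holds a signal: gene-level read counts over a single size factor for each library, scaled apart within each sugar, with no correction for length. Division by what 1 read is worth gave whole numbers for 100% of values in all 12 libraries (tolerance 0.01). Reads were recovered in 9. In the other 3 (glucose Cd-10 replicate 1, fructose Cd-10 replicates 1 and 2) 1 read was worth 0.999, 0.993 and 0.992, too close to 1 for whole numbers to serve as a check, and these were kept out of the count tests, in which fructose Cd-10 had 1 library, assumed to vary like the others.

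Median-ratio factors, computed over the libraries of each fit, were applied first. A gene entered a fit if 3 or more libraries reached a value of 10. limma 3.58.1 in R 4.3.3 (lmFit, then eBayes with a trend) was run on log2(value + 1). A log2 difference on this scale slightly understates that of low genes. The fructose day comparison used its 6 libraries, and the sugar comparisons and the interaction used all 12. Normalized counts in the text are on the scale of all 12 libraries. Genes were called at a Benjamini-Hochberg adjusted p below 0.05 over all genes tested. Nothing in the labels says that the replicate cultures share a batch or a day, and p-values measure the spread between these cultures. The 5 GSTs, the other genes of the list, the rule for naming genes and the tests were chosen with earlier results of these data known. The rule named the 5 GSTs, glutathione synthetase and any other gene of the list that passed against the direction of most, and, of the 10 genes most like each GST, those in the study's pathway lists plus 2 others. The remaining genes of the list and those with ID numbers between A04373 and A04379 were named after their values were seen.

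Alternatives were other scalings, pseudocounts (0.5 and 5) and filters, a replicate block, all 12 libraries in one fit, the study's threshold, leaving out each culture in turn, and edgeR 4.0.16 and DESeq2 1.42.0 on recovered reads. Tables were handled in pandas 2.3.3 and numpy 2.4.6, intervals in scipy 1.17.1 and plots in matplotlib 3.10.9, all under Python 3.11.15. The gene table at hand, from another strain, matched 0 of the gene IDs, so that no sequence or position is given.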

Additional observations from a re-analysis of the deposited data

How the results depend on the processing

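In fructose, 4 to 5 of the 5 GSTs were called lower at Cd-10 over all settings. The range was also 4 to 5 when each culture was left out in turn. A00358, A04373, A04379 and A09881 were called in all 17 alternatives, and A01960 in 13. Of these 17, the fit with no rescaling repeats the main one, since the median-ratio factors within fructose were 1.00. A04379 moved by over 1.5 times, to −2.99 in edgeR and DESeq2 from −2.21 in limma. Both of these count tests had 1 library of fructose Cd-10. A01960 was lost with all 12 libraries in one fit (−0.68, limma adjusted p = 0.066) and without fructose Cd-6 replicate 2 (−0.56, limma adjusted p = 0.059). It was also not called in edgeR and DESeq2 (−0.61 in each), where a change of method cannot be told apart from the missing libraries. The threshold of the study also left it out, with 4 of 5. Between sugars at Cd-10 and in the interaction, 0 of 5 passed in every limma setting. At Cd-6 the count was 0 except for 1 with the same sum per library (A00358, −0.76, limma adjusted p = 0.045). The sign of estimates that did not pass changed in these settings: A09881 at Cd-10 in edgeR (−0.0038) and DESeq2 (−9.9e-05), A09881 at Cd-6 with the same sum (−0.21), and in the interaction A04373 (0.12 with the same sum, 0.53 in edgeR, 0.52 in DESeq2), A04379 (−0.55 in edgeR, −0.57 in DESeq2) and A09881 (−0.019 in edgeR, −0.036 in DESeq2). Between sugars at Cd-10, A04379 was −1.09 in edgeR and −1.08 in DESeq2, and A04373 1.18 and 1.19. Leaving out 1 culture gave −0.57 to 0.12 for A04379 at Cd-10, −0.43 to 0.057 for A01960 and −0.065 to 0.25 for A09881 at Cd-6, and in the interaction −0.019 to 0.31 for A00358, −0.50 to 0.21 for A04373 and −0.11 to 0.64 for A04379. In the glucose day difference, which was not tested, A00358 was −1.88 with the same sum in place of −1.68. The cause was not tested.

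The same sum per library moved the median log2 difference of all genes by 0.12 in the fructose day comparison, −0.20 in the glucose one, −0.27 between sugars at Cd-6 and 0.30 in the interaction. Calls in fructose were then 1977 higher and 1173 lower, against 1472 and 1527, those at Cd-6 317 and 1277, against 550 and 522, and those of the interaction 527 and 216, against 190 and 295. Over all genes, calls between sugars at Cd-10 numbered 347, against 171 with the replicate block, 10 in edgeR and 684 in DESeq2 (390 higher, 294 lower), and 15 to 552 without 1 culture. At Cd-6 they numbered 1072, against 641 in edgeR and 292 to 1754 without 1 culture. In the interaction they numbered 485, against 743 with the same sum, 0 in edgeR (1962 at an unadjusted p under 0.05) and 92 to 1073 without 1 culture. In fructose, 2999 genes were called, against 1789 without fructose Cd-6 replicate 1. Deviations from the group means in same-numbered cultures of different groups had r from −0.205 to 0.181 over 18 pairs. Those in other cultures had r from −0.217 to 0.232 over 36 pairs. No pairing by number was seen, and this check cannot decide whether cultures shared a batch. A replicate block left 5 of 5 GSTs called in fructose (limma adjusted p from 0.0021 to 0.025) and 2480 genes, and 0 of 5 in the other comparisons. With 121 to 130 reads in the thinnest library, A00358 and A01960 had the most counting error of the 5.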

Other observations

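A pair of the GSTs, A04373 and A04379, carry ID numbers that enclose those of 5 other genes, A04374 to A04378, none of which has a product in the annotation used here. Whether the numbers follow the genome was not tested. Of the 5, 4 passed the filter on low values, all except A04376, which had 3.11 to 10.4 normalized counts in fructose Cd-10, against 1.09 to 16.2 in fructose Cd-6. In fructose, 1 of the 4 was called lower at Cd-10, where 15.2% of all genes were. This was A04374, with 5.18 to 8.75 normalized counts in fructose Cd-10, against 21.2 to 26.7 in fructose Cd-6 (log2 difference −1.55, limma adjusted p = 0.018). Of the fructose cultures, only those at Cd-6 reached the filter value of 10 in A04374. It entered the fit through the group where it is high, so nothing is read from its call or from this count. A04377, with 138 to 179 normalized counts in fructose Cd-10, against 135 to 152 in fructose Cd-6, had a log2 difference of 0.12. Between the sugars at Cd-6, where 10.3% of all genes were called in either direction, 1 of the 4 was lower in fructose, A04378, with 6.67 to 12.0 normalized counts in fructose, against 33.6 to 59.2 in glucose (log2 difference −2.14, limma adjusted p = 0.012). None of the 4 passed at Cd-10 between the sugars or in the interaction in limma, while 2 of the 4 had an unadjusted p under 0.05 in each, against 22.3% and 23.2% of all genes.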
